A study of Homo sapiens with 12 samples.

Results

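HSF1 CUT&Tag peaks that lay inside protein-coding genes but away from gene starts were examined in Huh7 cells. A peak was included when its summit, the position with the most tags, was farther than 1 kb from the outermost start of every gene annotated in GENCODE release 44 and inside the body of a protein-coding gene. Of 7129 HSF1 peaks on chromosomes 1 to 22 and X of hg38, 1591 (22.3%, 95% Wilson interval 21.4% to 23.3%) met this rule and are called intragenic peaks here (members in the plots). The distance to starts was only partly what the rule intends, because 638 of the 1591 summits lay within 1 kb of the start of another annotated transcript. These 638 are called peaks with another start, and the other 953 peaks without another start. Intervals cover counting error only.

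HSF1 (heat shock factor 1) is a transcription factor that forms trimers and binds inverted repeats of GAA, the heat shock element, when proteins misfold. In tumour cells it is also bound at many genes that are not induced by heat. Genes often have several promoters, so that a start of a shorter transcript can lie deep inside the gene, and introns also hold many enhancers, where lineage factors such as FOXA and HNF4A in hepatocytes bind together with AP-1. Acetylation of lysine 27 of histone H3 (H3K27ac) marks active promoters and enhancers.

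In CUT&Tag, a transposase is tethered through an antibody and cuts and tags the DNA around the protein it recognises. The cells were the established liver cancer line Huh7, which was wild type and received no treatment, and they gave 1 library with an antibody to HSF1 and 1 with an antibody to H3K27ac. The study's methods describe H3K27ac as a positive control and cells without primary antibody as a negative control, which was not analysed here. Without replicates, no comparison below has a test across samples. The HSF1 library kept 2712212 tags (75.2%) after duplicate removal, whereas the H3K27ac library kept 896393 of 15737890 (5.70%) and gave 1291 peaks on the same chromosomes. Of 9 hepatocyte markers, 1 (HNF4A) had an H3K27ac peak, and markers such as ALB, AFP, APOA1 and TTR had 0. None of 3 fibroblast, 3 leukocyte and 3 endothelial markers had one. A gene without a peak in this shallow list may still carry the mark.

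The sequences below show the kinds of DNA found under these summits. Each is 121 bp of hg38, + strand, centred on the summit, and capitals mark the motifs named for it here, while other motifs in the window stay in lower case. The first 3 are peaks with another start and with the extended NF-Y motif, which is CCAAT preceded by a pair of purines and followed by C or G and then a purine. They lie in DGKG at chr3:186109090-186109210 near a start of ETV5, in HNRNPL at chr19:38850424-38850544 and in SPTBN4 at chr19:40570790-40570910, which also holds the core motif of the insulator protein CTCF.
DGKG: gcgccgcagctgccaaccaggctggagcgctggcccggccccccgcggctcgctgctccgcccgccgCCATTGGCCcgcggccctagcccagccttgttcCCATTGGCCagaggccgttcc
HNRNPL: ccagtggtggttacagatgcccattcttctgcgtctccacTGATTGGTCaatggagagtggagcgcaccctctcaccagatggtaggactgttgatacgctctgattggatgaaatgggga
SPTBN4: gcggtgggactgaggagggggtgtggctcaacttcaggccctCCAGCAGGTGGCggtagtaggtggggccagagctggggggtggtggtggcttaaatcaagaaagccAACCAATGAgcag

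The next 5 are peaks without another start. PHC2 at chr1:33342395-33342515 holds an AP-1 and a FOXA motif, HNF4A at chr20:44370804-44370924 a FOXA motif, GSTK1 at chr7:143249085-143249205 an HNF4A motif, MOGAT1 at chr2:222709454-222709574 an AP-1 motif that overlaps an HNF4A motif, and CBR3 at chr21:36141562-36141682 an AP-1 and a CTCF motif. The CBR3 window also lies in an exon of the antisense transcript CBR3-AS1.
PHC2: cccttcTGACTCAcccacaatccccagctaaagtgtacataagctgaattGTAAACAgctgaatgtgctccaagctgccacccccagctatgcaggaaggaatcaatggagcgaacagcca
HNF4A: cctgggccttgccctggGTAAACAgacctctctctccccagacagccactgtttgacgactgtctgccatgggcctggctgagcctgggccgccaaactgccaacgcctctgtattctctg
GSTK1: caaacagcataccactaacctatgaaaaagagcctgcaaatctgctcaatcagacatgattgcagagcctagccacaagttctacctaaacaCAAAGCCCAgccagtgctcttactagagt
MOGAT1: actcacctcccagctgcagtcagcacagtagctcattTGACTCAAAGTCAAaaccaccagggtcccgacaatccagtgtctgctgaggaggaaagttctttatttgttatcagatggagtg
CBR3: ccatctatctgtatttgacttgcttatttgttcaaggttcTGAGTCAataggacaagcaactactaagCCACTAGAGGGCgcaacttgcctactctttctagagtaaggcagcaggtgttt

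The last is 1 of 2 intragenic peaks with a heat shock element without a mismatch, in intron 6 of GTF2IRD2B, a gene of the Williams syndrome region with near-identical copies nearby, at chr7:75125405-75125525. The other one lies in intron 2 of SLC45A4, and both had another start. The GTF2IRD2B peak was low, with 7 tags at the summit and a fold enrichment, defined below, of 5.48. Because of the copies its tags are uncertain in origin.
GTF2IRD2B: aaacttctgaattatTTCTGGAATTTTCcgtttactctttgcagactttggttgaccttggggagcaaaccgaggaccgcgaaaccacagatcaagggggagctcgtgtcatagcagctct

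Introns held most of the intragenic peaks. In the canonical transcript of the host gene, 711 summits (44.7%, 42.3% to 47.1%) lay in an intron after the first, 355 (22.3%, 20.3% to 24.4%) in the first intron and 115 (7.23%, 6.06% to 8.61%) in an exon. The remaining 410 (25.8%, 23.7% to 28.0%) were inside the gene but outside its canonical transcript, for instance upstream of the canonical start in a gene with a longer transcript. These classes were compared with the 1252 Mb of the genome in which a summit could have met the rule. Later introns made up 63.7% of these base pairs, first introns 20.0%, exons 5.01% and the stretches outside the canonical transcript 11.3%. The density was therefore lowest in later introns, at 0.892 peaks per Mb, against 1.42 in first introns, 1.83 in exons and 2.90 outside the canonical transcript. Among the later introns, intron 2 held 155 summits, intron 3 held 113, intron 4 held 75, intron 5 held 59, and introns 6 or later held 309.

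Peaks were denser near other transcript starts. Of the 1591 intragenic peaks, 40.1% (37.7% to 42.5%) had another start within 1 kb, while 7.0% of the admitted base pairs did. The density was 7.28 peaks per Mb near another start and 0.819 per Mb away from one. Without another start, later introns again had the lowest density, below the interval of first introns, with 0.915 peaks per Mb in exons (48 peaks), 1.01 in first introns (239), 0.721 in later introns (533) and 0.979 outside the canonical transcript (133). With another start, the density was 6.55 per Mb in exons (67 peaks), 7.89 in first introns (116), 3.12 in later introns (178) and 49.7 outside the canonical transcript (277).

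**Figure D1:**
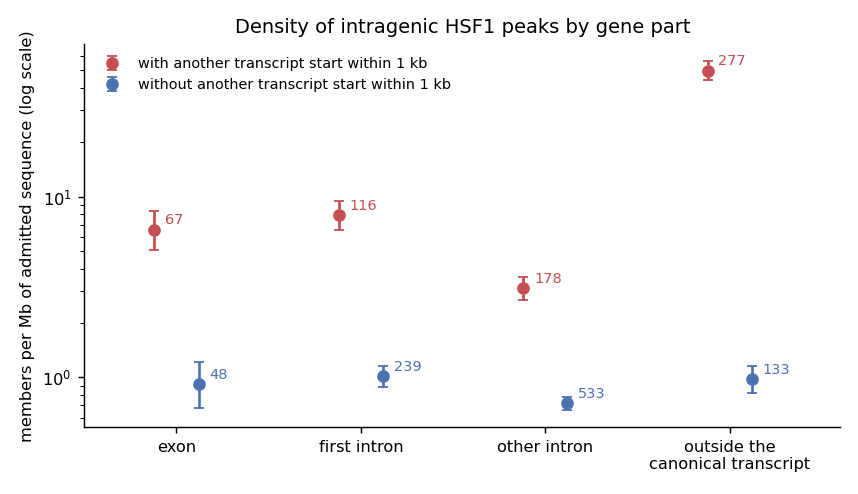
Intragenic HSF1 peaks per Mb of admitted sequence (y axis, log scale) in each class of the canonical transcript, with and without another transcript start within 1 kb of the summit; bars span exact 95% Poisson intervals. Away from other starts the 4 classes lie between 0.721 and 1.01 peaks per Mb, and near them between 3.12 and 49.7.

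The other start was most often the annotated canonical start of a host gene. At 357 of the 638 peaks (56.0%) the canonical start of a host gene lay within 1 kb, while the outermost start, which the rule uses, was that of a longer transcript. At 155 (24.3%) it was the start of another protein-coding transcript, at 122 (19.1%) that of a non-coding transcript of the host, and at 4 that of another gene's transcript. The nearest such start was a median of 114 bp from the summit, and 482 of the 638 (75.5%) were within 250 bp. Outside the canonical transcript, 254 of the 277 peaks with another start (91.7%) were at the canonical start. In exons, the 67 peaks with another start comprised 40 in 5′ UTRs, 23 in coding sequence and 4 in 3′ UTRs, and 45 of the 67 were in the first exon. The 48 exonic peaks without another start comprised 33 in 3′ UTRs, 15 in coding sequence and 0 in 5′ UTRs. The canonical start itself counts as another start. Summits near it, as in a first exon or 5′ UTR, thus go to the other group by construction.

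Of the 15 highest intragenic peaks, leaving out telomere-repeat and mitochondrial-like sequence, 10 had another start. The highest was in PNPLA8, which encodes a calcium-independent phospholipase, where the fold enrichment was 14.3 with 51 tags at the summit, 23 bp from the start of PNPLA8-206. L3MBTL1, a reader of methylated histones, followed with 13.7 in its intron 3. MXD1, a partner of MAX that opposes MYC, had 13.6 and ADPRHL1 13.1 in its first intron, and both shared bases with an H3K27ac peak. The peak in TSACC, also inside the chaperonin gene CCT3, reached 13. COX7A2L, which helps to assemble respiratory chain supercomplexes, had 12.7, and so did the DGKG peak, which lay 61 bp from the start of ETV5-201, the canonical transcript of an ETS factor. CA5B, a mitochondrial carbonic anhydrase, had 12.6, the tyrosine kinase gene FER 12.2, and a peak 28 bp from the start of DIABLO-215, a transcript of a gene for an activator of apoptosis, 11.9.

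The 5 others of the 15, and the 5 next below them that were picked after values were seen, had no annotated start within 1 kb. ZBTB2, a zinc finger factor, led them with a fold enrichment of 12.8 in its first intron, although its summit was only 1.03 kb from the gene start. GSTK1, a glutathione transferase of mitochondria and peroxisomes, had 12.4 at 5.05 kb from the start. AQP9, the glycerol channel of hepatocytes, and CCNJL, a cyclin-like gene, each had 12.2, and PEG10, an imprinted gene derived from a retrotransposon, had 11.9 and shared bases with an H3K27ac peak. Next came SYP with 11.9, PIGL with 11.8, the ubiquitin ligase gene FBXW7 with 11.7, VAV2 with 11.7 and the Polycomb gene PHC2 with 11.5, and the VAV2 summit, in intron 2, was 100 kb from any gene start.

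Density fell with distance from gene starts. Between 1 and 2 kb from the nearest gene start there were 3.81 peaks per Mb (175 peaks), between 10 and 20 kb 1.35 (321), between 50 and 100 kb 0.811 (162), and beyond 100 kb 0.394 (49). The share with another start fell from 66.3% in the first of these bands to 24.5% in the last. The median distance was 12.6 kb, with 8.30 kb for peaks with another start and 15.6 kb for those without, and the farthest summit was 256 kb from a gene start. Just inside the 1 kb threshold, between 1000 and 1200 bp, were 47 peaks with a median fold enrichment of 6.52, a median pileup of 16 tags and a mean GC content of 64.1%. Just outside the rule, between 800 and 1000 bp, were 56 peaks in protein-coding genes, with 6.32, 14 tags and 64.9%.

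**Figure D2:**
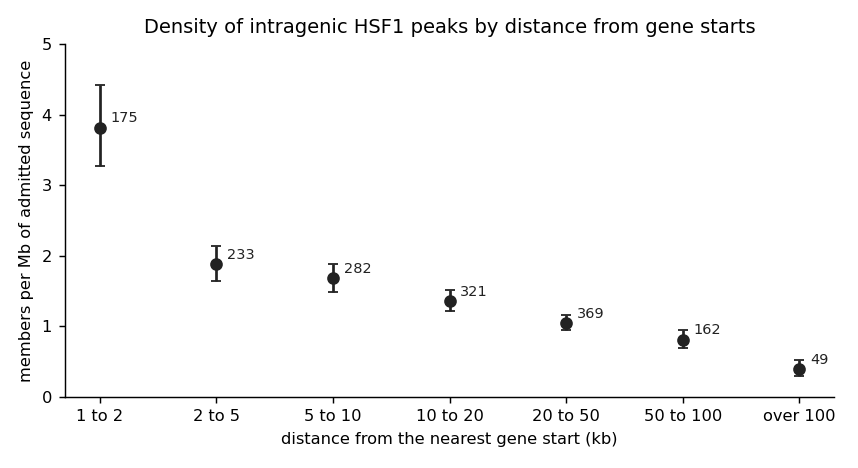
Intragenic HSF1 peaks per Mb of admitted sequence (y axis) by distance of the summit from the nearest gene start (x axis, kb), with exact 95% Poisson intervals as bars. Density falls from 3.81 peaks per Mb at 1 to 2 kb to 0.394 beyond 100 kb.

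Intragenic peaks were lower and shorter than those at protein-coding starts. Fold enrichment, in which 1 is added to both the pileup and the local background before division, ranged from 3.62 to 15.3 with a median of 6.57, and the pileup from 4 to 76 tags with a median of 12. At the 3622 HSF1 peaks within 1 kb of a protein-coding gene start the medians were 7.22 and 14 tags, and at the 958 intergenic peaks 6.34 and 11 tags. Peaks with another start were between these, with 6.90 and 13 tags, and peaks without one, with 6.40 and 11 tags, were close to intergenic peaks. Within 250 bp of the summit, 66.0% (62.2% to 69.6%) of peaks with another start were CpG-island-like, that is, had at least 50% GC and a CpG ratio, observed over expected CpG, of at least 0.6. Only 8.29% (6.70% to 10.2%) of peaks without another start were, a difference of 57.7 percentage points (95% Newcombe interval 53.5 to 61.6). At protein-coding starts the share was 92.2%, and at intergenic peaks 14.2%. Exonic peaks without another start stood out among these, with 13 of 48 (27.1%) against 5.44% of later introns, a difference of 21.6 points (10.9 to 35.7).

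Motifs were searched on both strands within 100 bp of the summit and in windows of the same width 5 kb to either side. The GC box is the site of SP and KLF factors, GGGCGG, and NF-Y, ETS, NRF1 and CRE motifs are also frequent at promoters. Of the peaks with another start, 364 (57.1%, 53.2% to 60.8%) held a GC box, against 6.58% of their flanks, and 72 (11.3%, 9.06% to 14.0%) the extended NF-Y motif, against 1.65%. The difference from the flanks was 9.64 points (7.25 to 12.4) for extended NF-Y. CCAAT alone stood at 28.8% against 23% of flanks, the E-box CACGTG at 6.90% against 2.43%, the NRF1 motif GCATGCGC at 3.76% against 0.705%, the ETS motif CCGGAAGT at 2.51% against 0.235% and the cAMP response element TGACGTCA at 1.88% against 0.0784%. In RefSeq promoter sequences (GRCh38.p14), 40.2% of 34961 windows of 201 bp held a GC box and 8.45% extended NF-Y.

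Peaks with another start held a GC box or extended NF-Y less often than peaks at protein-coding gene starts. There 67.4% held a GC box and 17.4% extended NF-Y, and the differences were -10.3 points (-14.5 to -6.25) and -6.16 points (-8.73 to -3.22) as peaks with another start minus these. For the E-box, NRF1 and CRE motifs the intervals of this difference included 0, at -0.503 points (-2.44 to 1.87), -0.766 points (-2.19 to 1.12) and -0.217 points (-1.17 to 1.22). Extended NF-Y was most frequent at the peaks outside the canonical transcript with another start, with 51 of 277 (18.4%, 14.3% to 23.4%). In introns after the first it was at 8 of 178 peaks with another start (4.49%, 2.29% to 8.62%). The 5 highest with the motif were DGKG, HNRNPL with a fold enrichment of 11.7 and the largest pileup among them, 74 tags, SESN3, SPTBN4 and GCA. GC content moved with these shares, from 64.2% at summits with another start to 45.7% in their flanks. Among windows of 50% to 60% GC, chosen after the data were seen, 13.4% of 134 summits and 1.43% of 350 flanks held extended NF-Y. At 40% to 50% GC, with 40 summits, its difference from the flanks was 2.70 points (-1.38 to 14.2). The E-box, NRF1, ETS and CRE motifs did not differ from the flanks beyond counting error in these bands or at 60% to 70%. In that order, the differences were 0.303, -0.222, 0.921 and 1.21 points at 50% to 60%. At 60% to 70%, with 284 summits but only 83 flanks, they were larger, at 5.69, 4.23, 3.87 and 2.11 points. Of these 83 flanks, 0 held the NRF1, ETS or CRE motif. So few flanks cannot decide whether these motifs differ at equal GC content.

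Peaks without another start held 4 other motifs more often than their flanks. The AP-1 motif TGANTCA was at 150 of 953 (15.7%, 13.6% to 18.2%) and in 5.40% of flanks, a difference of 10.3 points (7.90 to 13). The HNF4A motif CAAAGTCCA with at most 1 mismatch was at 143 (15%, 12.9% to 17.4%) and in 5.30% of flanks, and the FOXA motif TGTTTAC at 99 (10.4%, 8.61% to 12.5%) and in 2.73% of flanks. The CTCF core was at 28 (2.94%, 2.04% to 4.21%) and in 0.0525% of flanks. At least 1 of these 4 motifs was present at 370 of 953 summits (38.8%, 35.8% to 42.0%) and in 12.7% of flanks. Extended NF-Y was at 22 (2.31%) against 1.63% in the flanks, and the difference of 0.682 points had an interval from -0.347 to 1.94. CCAAT alone was below the flanks, at 19.9% against 23.7%, a difference of -3.78 points (-6.89 to -0.538). At 40% to 50% and 50% to 60% GC the interval of the CCAAT difference included 0, with -0.624 and 2.67 points. Over all intragenic peaks CCAAT was at 23.5% of summits and in 23.4% of flanks. The GC box was at 145 (15.2%) against 5.67%, a difference of 9.55 points (7.13 to 12.1). At 40% to 50% and 50% to 60% GC the interval of this difference included 0, with -1.12 and 2.62 points. At 60% to 70% it was 11.7 points (0.725 to 21.8). Peaks with another start also exceeded their flanks for AP-1, with 8.62% against 5.41%, and for HNF4A, with 8.62% against 5.02%. Of the RefSeq promoter windows, 5.37% held AP-1, 4.70% HNF4A, 2.33% FOXA and 0.380% the CTCF core.

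The contrast with peaks at protein-coding starts was large for these 4 motifs. The group is made of motifs that exceeded the flanks at these same peaks, so its shares are descriptions only. At protein-coding gene starts 2.29% of HSF1 peaks held AP-1, 3.29% HNF4A and 1.38% FOXA, and at least 1 of the 4 was at 7.29%, a difference of 31.5 points (28.4 to 34.8) from the peaks without another start. Peaks with another start had 18.7%, a difference of -20.2 points (-24.4 to -15.8) from those without. Peaks without another start exceeded intergenic peaks, which had 33.4%, by 5.42 points (1.11 to 9.70), and for AP-1, at 11.3% of intergenic peaks, by 4.47 points (1.40 to 7.54). Telomere-repeat and mitochondrial-like sequence was not left out here. It was at 4.49% of intergenic peaks and 1.05% of peaks without another start, and its part in these differences was not tested. For FOXA and HNF4A the intervals of the difference between peaks without another start and intergenic peaks, 0.785 points (-1.92 to 3.49) and 2.17 points (-0.943 to 5.28), included 0. The CTCF core was lower than at intergenic peaks, with 2.94% against 3.76%, and its interval included 0 (-0.820 points, -2.48 to 0.821). First and later introns without another start did not differ beyond counting error either, with AP-1 at 15.9% and 16.9%, a difference of -0.986 points (-6.32 to 4.96), and HNF4A at 16.3% and 15.4%, a difference of 0.933 points (-4.37 to 6.86).

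GC content differed less at these peaks, with 53.1% at summits and 45.0% in flanks. Among windows of 40% to 50% GC, AP-1 was at 18.7% of 327 summits without another start and in 5.73% of 646 flanks, FOXA at 13.8% against 2.48% and HNF4A at 17.7% against 6.04%. At 60% to 70% GC the HNF4A motif was at 9.47% of summits and in 8.04% of flanks, a difference of 1.43 points with an interval from -6.01 to 7.97. All 4 motifs were densest around the summit. In bins of 50 bp from 500 bp before to 500 bp after it, AP-1 rose from 1.57% of peaks at the outer edge to 5.04% just after the summit, and HNF4A reached 5.46%, FOXA 3.46% and CTCF 1.26% in a bin next to it. Of the CTCF cores within 100 bp, 78.6% had their centre within 50 bp of the summit.

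The 5 highest peaks with an AP-1 motif were in RTN4, an endoplasmic reticulum gene whose peak was at another start, with a fold enrichment of 11.9, FBXW7 with 11.7, PHC2 with 11.5, ESYT2, a tether between endoplasmic reticulum and plasma membrane, with 11, and the thyroid hormone receptor gene THRB with 10.7. The highest without another start and with a FOXA motif, picked after the shares were seen, were PHC2, ZNF507 with 10.6, PTPRM with 9.91, HNF4A with 9.57 and ARHGAP35 with 9.52. With an HNF4A motif they were GSTK1, the nuclear import gene NUTF2 with 11.2, ESYT2, ERI1 with 10.6 and MOGAT1, an enzyme of triacylglycerol synthesis, with 10.1. The CTCF core was present in SPTBN4 with 11.1, CBR3 with 9.04, the DNA repair gene NBN with 8.42, CTIF with 7.98 and HABP2, a protease secreted by liver, with 7.65. CBR3, CTIF and HABP2 of these had no other start.

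Heat shock elements were rare. The element was searched as GAANNTTCNNGAA allowing 1 mismatch among 9 fixed bases, and it was at 34 of 1591 intragenic peaks (2.14%, 1.53% to 2.97%) and in 4.87% of flanks, a difference of -2.73 points (-3.74 to -1.65). The share was 2.21% at protein-coding starts and 3.55% at intergenic peaks, and 4.13% of the RefSeq promoter windows held it. Peaks with and without another start did not differ beyond counting error, with 2.04% and 2.20%. Without a mismatch, 2 summits (0.126%) and 12 of 3182 flanks held the element. The element is AT-rich, and summits had 57.5% GC against 45.3% in the flanks. Among windows of 40% to 50% GC the difference was -1.63 points and among windows of 50% to 60% GC 0.512 points, so it changed sign. The pair GAANNTTC or its other order TTCNNGAA was at 6.10% of summits and in 10.7% of flanks, and this difference too changed sign within GC bands, to 0.160 points (-2.43 to 3.05) at 50% to 60% GC.

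Few intragenic peaks met an H3K27ac peak. At least 1 bp was shared by 92 of 1591 (5.78%, 4.74% to 7.04%), whereas 8.56% of all HSF1 peaks shared at least 1 bp. The share was 6.43% with another start and 5.35% without, a difference of 1.07 points (-1.24 to 3.59). Classes did not differ beyond counting error, with 6.20% in first introns, 5.91% in later introns and 4 of 115 (3.48%) in exons. Against protein-coding starts, where the share was also 8.56%, the difference was -2.78 points (-4.19 to -1.25), and against intergenic peaks, where it was 12.9%, -7.16 points (-9.66 to -4.82). The first of these intervals included 0 when at least 50% of the HSF1 peak had to be covered (-0.925 points) and with HSF1 peaks (-2.19) or H3K27ac peaks (-0.578) of −log10 p of at least 10. Without telomere-repeat and mitochondrial-like sequence the latter 2 shares were 5.57% for intragenic and 10.7% for intergenic peaks, a difference of -5.14 points (-7.55 to -2.92). In the other direction, 92 of 1291 H3K27ac peaks (7.13%, 5.85% to 8.66%) shared bases with an intragenic HSF1 peak, and 606 (46.9%) with any HSF1 peak.

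Peak height moved with this overlap. In 4 groups of about equal size from lowest to highest fold enrichment, 3.02%, 3.53%, 5.13% and 11.3% of intragenic peaks shared bases with an H3K27ac peak. The 92 had a median fold enrichment of 7.63, a pileup of 17 tags and a length of 429 bp, against 6.52, 11 tags and 302 bp for the others. Height and length also differed between intragenic peaks and those at protein-coding starts, and their part in the lower share was not tested. The highest with an H3K27ac peak were MXD1, ADPRHL1, COX7A2L and PEG10, followed by NUTF2 and FAM104A with 11.2 each, the retinaldehyde dehydrogenase gene ALDH1A1 with 10.5, and the phosphatase gene PTPN2, ZNF131 and SMIM20 with 10.4 each.

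**Figure D3:**
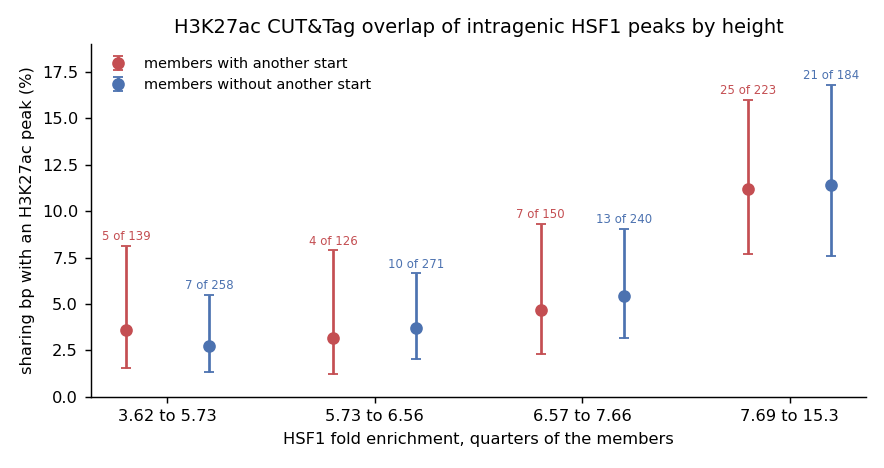
Share of intragenic peaks that share at least 1 bp with an H3K27ac peak (y axis, percent) in 4 groups of HSF1 fold enrichment (x axis), for peaks with and without another start, with 95% Wilson intervals and counts. Both kinds have their highest share in the group with the highest enrichment, with 11.2% and 11.4%.

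Host genes were numerous and long. The 1591 peaks lay in 1472 protein-coding genes, 7.37% of the 19970 on these chromosomes, and 893 genes held a peak without another start. Of the hosts, 1283 held 1 intragenic peak, 159 held 2, 22 held 3, 3 held 4 and 5 held 5, and 100 peaks lay in more than 1 gene. Hosts had a median length of 82.9 kb, against 27.5 kb for all protein-coding genes, and the share of genes that were hosts was 0.961%, 4.21%, 7.89% and 16.4% in 4 groups of genes from the shortest to the longest. An HSF1 peak within 1 kb of the gene's own start was present at 21.1% of hosts and 21.6% of other genes, a difference of -0.448 points (-2.54 to 1.79). Of these 4 length groups, only in the third did the interval of this difference leave out 0, with 18.5% of hosts and 27.4% of other genes (-8.88 points, -12.6 to -4.55). For hosts of a peak without another start the difference in that group was -5.28 points and its interval, -10.5 to 0.830, included 0.

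The genes with the most intragenic peaks were GSE1, EGFR, TLE1, PLCB1 and PDE4D, with 5 each. EGFR, the receptor of epidermal growth factor, had 4 in its first intron and 1 in intron 19, with fold enrichments from 4.96 to 6.52, pileups from 12 to 17 tags and 0 peaks at another start or at its own start. Of these 5, 3 held an AP-1 motif. TLE1, a Groucho corepressor, had the highest density of the 10 genes named here, 47.2 per Mb over 106 kb, against 26.0 per Mb for EGFR, and an HSF1 peak also lay at its start. PLCB1, a phospholipase C, had 4 of its 5 at another start, and 2 shared bases with an H3K27ac peak, with H3K27ac fold enrichments of 6.34 and 6.94. Both of these 2 held a FOXA motif. In GSE1 the highest pair, with 7.77 and 8.11, had no other start. PDE4D, a cAMP phosphodiesterase gene of 1553 kb, had low peaks, from 4.29 to 5.74.

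The 3 genes with 4 intragenic peaks were PC, NFIA and TBC1D5, and FNDC3B and MAML3 are named from the 22 with 3. PC, the pyruvate carboxylase gene of gluconeogenesis, had 4 within 64.5 kb, with pileups of 21, 15, 25 and 34 tags and fold enrichments of 8.15, 5.00, 8.72 and 4.82, all without another start. The third of them, 7.97 kb from the nearest gene start, shared bases with an H3K27ac peak. NFIA, a nuclear factor I gene, had 4, of which 1 was at another start, and TBC1D5 had 4 with 0 at another start. FNDC3B had 3 within 49.7 kb with fold enrichments of 7.09, 9.44 and 8.82, and MAML3, a coactivator of Notch signalling, 3 from 4.21 to 9.21.

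Gene lists chosen for this cell type and factor were counted next. Beside the 7.37% of all protein-coding genes, 3 of 62 chaperone genes (4.84%, 1.66% to 13.3%) were hosts, although 30 of the 62 (48.4%) had an HSF1 peak at their own start, against 21.5% of all protein-coding genes. That share was 29.7% for hepatocyte transcription factors, 19.2% for liver secreted proteins and 41.7% for the MYC family. For insulin and growth factor signalling genes it was 34.7%, and for coactivator and chromatin genes 33.3%. The 3 chaperone hosts were CANX with a fold enrichment of 10.0, CCT3, whose peak is the one in TSACC, and DNAJB1, whose peak of 5.24 is also in TECR. All 3 peaks had another start, which was the canonical start of a host gene. Hepatocyte transcription factors were hosts in 6 of 37 cases (16.2%, 7.65% to 31.1%), and each of the 6 held a peak without another start. HNF4A had 9.57 in its first intron, the xenobiotic receptor gene NR1I2 8.89 with AP-1 and HNF4A motifs, GATA4 8.05 with a FOXA motif, the sterol factor SREBF1 6.17, RXRA 5.98 with an HNF4A motif and KLF15 5.16. None of these 6 peaks shared bases with an H3K27ac peak. Of all intragenic peaks 5.78% did, so 6 peaks are too few to show a difference. Liver secreted proteins were hosts in 4 of 78 cases (5.13%), with C3 at 4.23, FN1 at 5.66, PROS1 at 4.89 and SERPIND1 at 5.88.

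Lists of growth factor and chromatin genes had longer genes. Of 72 insulin and growth factor signalling genes, 14 (19.4%, 12% to 30.0%) were hosts, with a median length of the list of 82.8 kb against 27.5 kb for all genes. Among them, IGF1R had 8.93 in intron 4 and INSR 5.26 in intron 2, and both of these peaks shared bases with an H3K27ac peak, as did that of RPTOR, with 6.16. Of 111 coactivator and chromatin genes, 17 (15.3%, 9.79% to 23.2%) were hosts, and the median length of the list was 109 kb. KAT6B had 11.7, KDM2A 10.9 with a pileup of 59 tags, CHD9 9.62 and NCOA2 8.82, all with another start, while TRRAP had 6.16 in intron 21 without one and with a FOXA motif. The MYC family had 4 hosts among 12 genes, MXD1 with 13.6, MNT with 6.70, MGA with 6.25 and MXI1 with 5.00 and 5.91, and 0 of these had a peak without another start. The lists were chosen with results of these data known, and gene length differs between them, so the shares are descriptions only.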

How the data were processed

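The authors made 1 HSF1 and 1 H3K27ac CUT&Tag library from Huh7 cells, aligned them to hg38 with Bowtie2 and called peaks on each separately with MACS 2.1.4. Per the file headers no control was used, the p-value cutoff was 1e-05 and tags were shifted by -100 bp and extended to 200 bp. Each deposited peak has a pileup signal (extended tags covering the summit, unscaled), a fold enrichment and a −log10 p-value. The fold enrichment is the ratio of pileup to local background after 1 is added to both. The HSF1 library held 3604911 tags and that of H3K27ac 15737890, with a redundant rate of 0.94. Depth therefore limits H3K27ac most.

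Summits were placed in GENCODE release 44 genes and canonical transcripts, overlap meant 1 shared bp, and sequences were read from hg38. Shares have Wilson and differences Newcombe 95% intervals. No test was possible with 1 library per antibody. Telomere repeats had 3 TTAGGG units in a row, and mitochondrial-like summits at least 20% of 13-base words in the mitochondrial genome. Mappability was not corrected for. Named were the 15 highest peaks, the 10 hosts with most peaks, the 10 highest with H3K27ac, the 5 highest per motif, the 3 highest per class and hosts in 6 gene lists. FOXA and HNF4A examples and GC bands were added after values were seen. Members and lists, including the extended NF-Y motif, were chosen with earlier results of these data known. Other distances, transcript sets, cutoffs, overlaps and windows were alternatives. The steps were tested on simulated data. Python 3.11.15, numpy 2.4.6, pysam 0.24.0, samtools 1.23.1 and matplotlib 3.10.9 were used. H3K27ac ChIP-seq lists of transfected cells, on hg19, and RNA-seq were not analysed here, and some named genes are not reported here.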

Additional observations from a re-analysis of the deposited data

How the results depend on the processing

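No paired analysis was possible because each antibody had 1 library. A −log10 p-value of at least 10 left 864 intragenic peaks in 866 host genes, with 41.4% in later introns, 30.0% outside the canonical transcript, 46.5% near another start and 7.87% sharing bases with H3K27ac. With a distance of 500 bp from gene starts, 39.5% lay in later introns and 29.7% outside, with 2 kb 48.0% in later introns, and with protein-coding starts only 41.8% and 28.4%. Classes from all transcripts gave 18.0% in exons, 50.3% in first and 31.7% in later introns and 0% outside, which follows from their construction. Another start lay within 500 bp of 35.3%, within 2 kb of 47.7% and, among GENCODE basic transcripts, within 1 kb of 29.5%. The H3K27ac share was 3.52% when at least 50% of the peak had to be covered, 4.27% with the summit inside and 2.51% with H3K27ac peaks of −log10 p of at least 10. The difference from protein-coding starts was -1.36 points with the summit inside (-2.55 to -0.0442), and its interval included 0 in 3 settings, with -0.925 points at 50% cover, -2.19 with the stricter HSF1 peaks and -0.578 with the stricter H3K27ac peaks. When any transcript start of a gene counted as its start, hosts exceeded other genes by 35.4 points, since intragenic peaks with another start then count themselves.

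For single motifs, 254 of 321 alternative values did not change in kind. Either they kept their direction with an interval that left out 0, or their interval included 0 like that of the reported value. Changes of sign where both intervals included 0 are among the 254 and are not listed below. At 40% to 50% GC, extended NF-Y with another start differed from the flanks by 2.70 points and the heat shock element over all peaks by -1.63, both with intervals that included 0, as did -0.251 for the element without a mismatch. Signs changed for the heat shock element at 50% to 60% GC (0.512 over all peaks, 2.59 with another start), at 40% to 50% GC (3.12 with another start) and without a mismatch (0.0784 with another start). They changed for the GAA pair at 50% to 60% GC (0.160 over all, 2.1 with another start) and at 40% to 50% (6.47 with another start). For CCAAT they changed with 250 bp to either side (-3.21 over all, -2.04 with another start) and at 50% to 60% GC (2.67 without another start). At 40% to 50% GC the ETS difference with another start was -0.230, that of NRF1 -0.376 over all and -0.461 with another start, and that of the GC box -0.254 over all and -1.12 without another start. At 50% to 60% GC the E-box difference over all was -0.473 and that of NRF1 with another start -0.222. The cause was not tested. Few windows are behind some of these, with 40 summits with another start at 40% to 50% GC.

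The H3K27ac list is limited by its depth, and with 1 library per antibody no value has a replicate check.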

Other observations

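Among the intragenic peaks, 10 lay on telomere-repeat or mitochondrial-like sequence, and none of these had another transcript start. They included the intragenic peak with the highest fold enrichment, in intron 3 of PDZRN4, with 15.3 and a pileup of 22 tags, and that in intron 4 of LARP1B, with 14.0 and 27 tags. Others were in ST6GALNAC5, BET1L, PCMTD2, PPM1L, CORIN, VPS13B and FRMD6, with fold enrichments from 5.88 to 11.5. Those in ST6GALNAC5, BET1L and PCMTD2 shared bases with an H3K27ac peak, and at BET1L and PCMTD2 the H3K27ac fold enrichment was 13.1 and 15.6, with pileups of 40 and 44 tags. These 10 were 0.629% of intragenic peaks, against 4.49% of intergenic and 0.0276% of coding-start peaks. Tags from many genomic copies can align to such sequence, and their part in these heights was not tested.

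Several genes had groups of intragenic peaks a short distance apart. In TLE1 a pair without another start, in introns 16 and 17, had summits at 81588385 and 81587665 on chromosome 9, with fold enrichments of 5.73 and 5.26. In INSR a pair in intron 2 had summits at 7197334 and 7198058 on chromosome 19, with 5.26 and 4.42, and both held a GC box. In MXI1, a gene for another MAX partner, a pair in the first intron had summits at 110226279 and 110226840 on chromosome 10. Whether such pairs are separate sites or 1 broad site divided by the peak caller was not tested.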
